A study of Mus musculus with 6 samples.

Results

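The genes described here are 10 regulators of the passage from G1 into S phase: the D-type cyclins Ccnd2 and Ccnd3, the E-type cyclins Ccne1 and Ccne2, the A-type cyclin Ccna2, the kinases Cdk2, Cdk4 and Cdk6, and the kinase inhibitors Cdkn1b (p27) and Cdkn2c (p18). They were taken by symbol from the 22322 genes of the deposited table, which held all 10, and all 10 passed the filter on low counts. RNA-Seq was performed on double-positive (DP) thymocytes, the CD4+CD8+ stage of T cell development, sorted from the thymus of untreated mice aged 4 to 7 weeks, in 3 control and 3 Paxbp1 cKO libraries. Both genotypes carried Paxbp1 fl/fl alleles, in which 1 exon lies between loxP sites, on a C57BL/6 background, and the cKO mice also carried the Lck-cre transgene, whose Lck promoter drives deletion in thymocytes before the DP stage. The controls were littermates without a stated Cre transgene, so an effect of Cre itself cannot be told apart from the deletion. The study used mice of both sexes, and Y-linked transcripts were present in all 6 libraries (Ddx3y at 170 to 188 CPM in the control libraries and 217 to 244 CPM in those labelled cKO). Of 4 Y-linked genes, Eif2s3y was called lower in the libraries labelled cKO (edgeR log2 fold change -0.98, adjusted p = 0.0135) and Ddx3y, Uty and Kdm5d were not called. The labels do not say whether each library came from a separate mouse, so the p-values measure only the spread between these libraries. The question put to the data was how the level of each G1/S regulator compared between the control libraries and the libraries labelled cKO.

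Cyclins are the regulatory partners of the cyclin-dependent kinases. D-type cyclins bind Cdk4 and Cdk6 and start the phosphorylation of the retinoblastoma protein, which releases E2F factors. E2F factors in turn drive transcription of E-type cyclins, which activate Cdk2 at the start of S phase, and of Ccna2, which acts with Cdk2 and Cdk1 through S and G2. Cdkn2c belongs to the INK4 family and binds Cdk4 and Cdk6, while Cdkn1b belongs to the Cip/Kip family and binds complexes of Cdk2. In the thymus, Ccnd3 is known to be required for the burst of division that follows pre-TCR signaling, and most DP thymocytes are small cells that no longer divide.

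Several of these genes are paralogs, and reads from paralogs could be mixed if their sequences were alike over a read's length. The coding sequences of the principal transcripts (GENCODE release M21, GRCm38) were therefore compared. Ccne1 and Ccne2, the pair whose values are set against each other below, were identical at 61.5% of 1191 aligned coding bases, and their longest identical stretch was 18 bases. The 90 bases around that stretch are shown from position 559 of the Ccne1 and 556 of the Ccne2 coding sequence, counted from the first base of the start codon, with capitals for the 19 positions at which the pair differ.
Ccne1: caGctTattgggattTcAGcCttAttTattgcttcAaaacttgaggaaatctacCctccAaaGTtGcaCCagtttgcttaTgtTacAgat
Ccne2: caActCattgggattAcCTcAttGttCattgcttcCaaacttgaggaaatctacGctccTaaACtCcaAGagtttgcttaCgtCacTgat
Cdk4 and Cdk6 were identical at 69.0% of 900 aligned bases with a longest shared stretch of 20 bases. They are shown in the same way from positions 427 and 442, with 23 differing bases in capitals.
Cdk4: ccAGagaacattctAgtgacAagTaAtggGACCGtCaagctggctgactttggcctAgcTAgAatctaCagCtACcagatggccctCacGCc
Cdk6: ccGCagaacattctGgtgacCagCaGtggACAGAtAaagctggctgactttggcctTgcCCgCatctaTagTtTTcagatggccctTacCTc
Ccnd2 and Ccnd3 were identical at 68.9% of 852 aligned bases, with a longest shared stretch of 14 bases at the very start of both coding sequences. No pair among these thus shared an identical coding stretch longer than 20 bases.

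For 7 of the 10 genes RefSeq (GRCm38.p6) gave a promoter window, read here as the 250 bases before the annotated start, 9 windows in all. Ccnd2, Ccne2 and Ccna2 had no entry. The windows were searched on both strands for the E-box CACGTG, known as a Myc recognition sequence, and for the E2F letters TTTCCCGC, TTTGGCGC, TTTCGCGC and TTTGCCGC. The Cdk4 window, chr10:127063285-127063534 on the plus strand, is shown because it held 4 E-boxes, in capitals, at 172, 118, 98 and 11 bases before the start.
Cdk4: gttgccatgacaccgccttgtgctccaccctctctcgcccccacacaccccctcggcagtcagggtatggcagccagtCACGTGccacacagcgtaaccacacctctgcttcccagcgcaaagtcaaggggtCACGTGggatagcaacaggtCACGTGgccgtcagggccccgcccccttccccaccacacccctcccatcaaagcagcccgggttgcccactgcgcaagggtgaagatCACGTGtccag
At least 1 E-box was present in 6.02% of all 32851 windows of this length and at least 4 in 0.0213%. The Cdk2 window, chr10:128705052-128705301 on the minus strand, is shown because it alone among the 9 held the E2F letters, on the opposite strand at 140 bases before the start, which 1.86% of all windows did.
Cdk2: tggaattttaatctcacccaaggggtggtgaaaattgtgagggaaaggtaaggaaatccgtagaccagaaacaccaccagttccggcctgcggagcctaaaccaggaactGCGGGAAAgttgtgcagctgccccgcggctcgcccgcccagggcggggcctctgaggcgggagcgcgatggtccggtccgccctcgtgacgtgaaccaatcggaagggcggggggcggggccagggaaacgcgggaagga
These matches describe the letters only.

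The libraries held between 18963775 and 26252248 counts, and values are given as CPM, read counts scaled to a common library size with TMM factors. Each gene was compared by edgeR's quasi-likelihood test across 11488 tested genes, and called at a Benjamini-Hochberg adjusted p below 0.05. Over all genes 1191 were called, and between 120 (without the library labelled cKO 3) and 2030 (without control library 1) when 1 library was left out. The targeted gene Paxbp1 had 40.1, 16.4 and 15.5 CPM in control libraries 1, 2 and 3 and 38.8, 47.1 and 49.6 CPM in those labelled cKO (log2 fold change 0.92, standard error 0.33, edgeR adjusted p = 0.0977). These counts cover the whole gene rather than the deleted exon and so do not check the genotype, and each direction below rests on the labels. By qPCR and RT-PCR of sorted thymocytes, the paper reports a deletion that was complete by the ISP stage, which precedes DP. A western blot in the paper showed loss of the protein in sorted DP thymocytes. Those samples are not linked to these libraries in the sources used here. Of 12 markers of DP thymocytes, all were detected, 6 were called lower and 0 higher in the libraries labelled cKO, with summed levels of 16340 to 18940 CPM in the control libraries and 11570 to 13690 in the others. Of 20 macrophage markers, 7 of 16 tested were called higher, and 4 of the 16 had point estimates below 0. Adgre1 had 0 counts in every control library against 42 to 52, while Mertk and Marco had 0 in all 6 libraries, and the summed level was 422 to 474 CPM in the control libraries and 435 to 452 in those labelled cKO, most of it Ctsb. Of 10 markers of earlier thymocyte stages, 3 of 8 tested (Il2ra, Hes1 and Dtx1) were called higher. Another 4 had point estimates below 0 and were not called (Kit -0.93, Ptcra -0.31, Tcf12 -0.28 and Cd44 -0.009 on the log2 scale). Over all tested genes 4.47% were called higher and 5.89% lower. Erg had 0 counts throughout, and the summed level was 785 to 827 CPM in the control libraries against 741 to 833, most of it Tcf12. Tcf12 was lower in every library labelled cKO than in any control library, so leaving it out removes a gene that moved the other way. It encodes HEB, which the paper's introduction names among factors that influence thymocyte survival. At 435 to 615 CPM in these DP libraries, it does not mark earlier stages alone. Without Tcf12, left out after the values were seen, the sum was 208, 273 and 263 CPM in control libraries 1, 2 and 3. It was 326, 324 and 306 CPM in the others, so the groups were apart. Mean Hes1 went from 7.83 to 54.1 CPM and mean Notch1 from 136 to 162 CPM, while mean Ptcra went from 76.8 to 61.9 CPM. Ctsb also lay lower in every library labelled cKO (log2 fold change -0.18, edgeR adjusted p = 0.313). Without Ctsb the macrophage sum was 64.2, 46.2 and 34.3 CPM in control libraries 1, 2 and 3 and 87.8, 81.4 and 100 CPM in the others. The part of these markers in the values below was not tested. In bulk RNA, fewer cells of a type and less RNA per cell cannot be told apart.

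Levels of different genes were compared per transcript length, as the deposited FPKM. Ccnd3 was by far the most abundant of the 10, with a mean of 1282 ± 113 FPKM (S.D., 3 libraries) among the controls and 1095 ± 89.8 in the libraries labelled cKO. Cdk4, Cdk2 and Ccna2 followed in the control libraries at 147 ± 36.5, 139 ± 16.4 and 114 ± 35.3 FPKM, and the ranges of neighbours among these overlapped. Cdkn2c, at 52.9 ± 11.5 FPKM, was apart from the neighbours on either side. Cdkn1b, Ccne2 and Ccne1, at 32.2 ± 7.05, 31.8 ± 3.53 and 30.2 ± 3.78 FPKM, could not be ordered beyond their spread. Cdk6, at 11.5 ± 1.44 FPKM, and Ccnd2, at 1.73 ± 1.12 FPKM, came last, both apart from their neighbours. In the libraries labelled cKO Ccne2, at 76.3 ± 11.4 FPKM, lay between Ccna2 (118 ± 18.0) and Cdkn2c (45.0 ± 6.17) without overlap with either. Cdkn2c, Ccne1 and Cdkn1b overlapped with their neighbours there, and the other genes kept their control order.

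**Figure D1:**
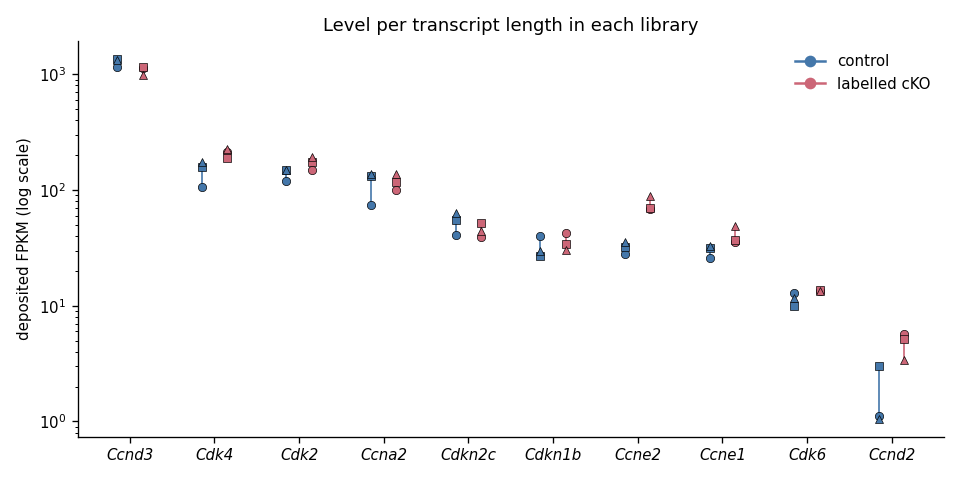
Deposited FPKM (vertical log axis) of the 10 genes in each library, ordered by their control mean, with control libraries in blue, libraries labelled cKO in red, and a line from the lowest to the highest library of each group. Ccnd3 sits near 1000 FPKM in both groups, Ccnd2 lies lowest in both, and the red points of Ccne2 (69.1 to 89.5) lie above its blue ones (28.2 to 35.2).

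Of the 10 genes, only Ccne2 was called by edgeR, and it was higher (1 of 10), where 10.4% of all tested genes were called in either direction 4.47% were higher and 5.89% were lower. A share of this size is near the background, so the set as a whole did not stand out by its edgeR calls. DESeq2, the test the study used, was rerun here at an adjusted p below 0.05 alone, without the study's fold threshold. It called 4 of the 10, of which Cdk4 (0.51) and Cdk6 (0.38) lay below that threshold of 1 on the log2 scale. Over all 15349 genes with a count it called 1912, and this total includes any that its own filter left without an adjusted p. The groups did not overlap in CPM for 6 of the 10 genes, 5 of them higher and 1 lower in the libraries labelled cKO, against 33.0% of all tested genes without overlap (15.7% higher and 17.3% lower). The median log2 fold change of the 10 was 0.32, against -0.0017 over all tested genes.

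**Figure D2:**
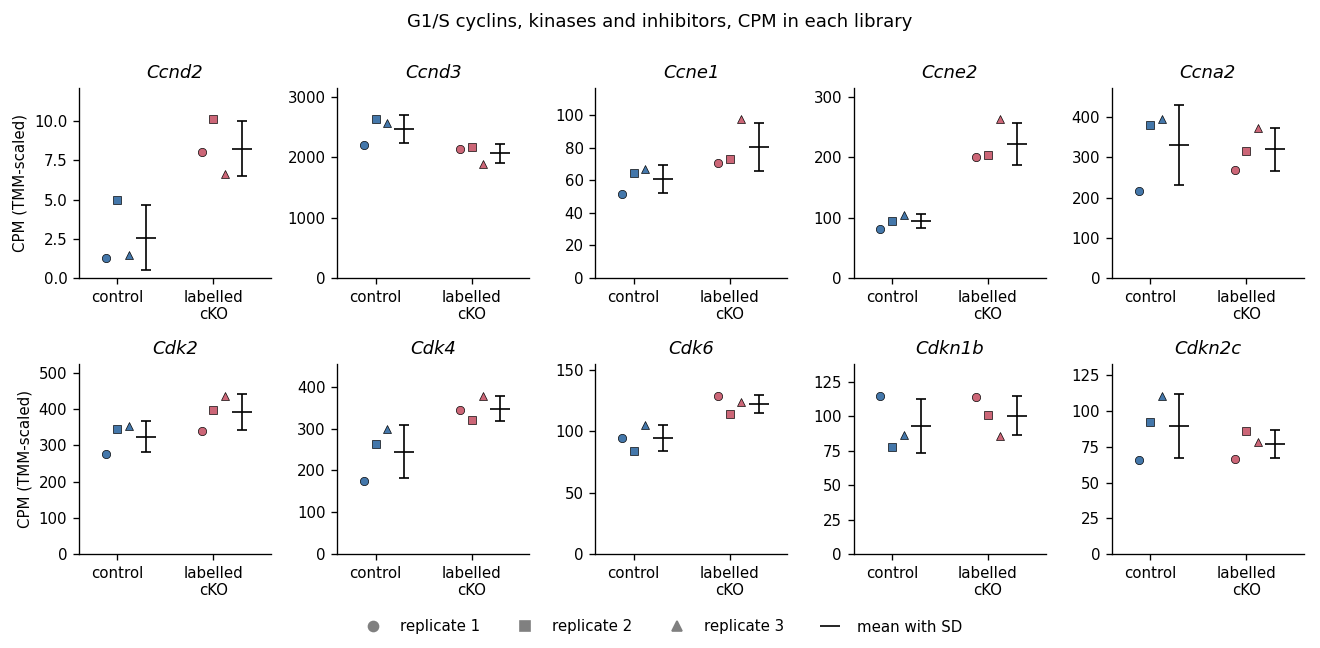
CPM of each of the 10 genes (vertical axes from 0) in the 3 control libraries (blue) and the 3 libraries labelled cKO (red), with a symbol per replicate and the mean with its S.D. in black. Ccnd2, Ccne1, Ccne2, Cdk4 and Cdk6 have every red point above every blue point, Ccnd3 has every red point below, and the groups overlap for Ccna2, Cdk2, Cdkn1b and Cdkn2c.

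Ccne2 rose 2.36-fold. Cyclin E2 (ENSMUSG00000028212, chromosome 4 of GRCm38 from 11191351 to 11204779, plus strand) is a partner of Cdk2 at the onset of DNA synthesis. It had 81.8, 94.8 and 105 CPM in control libraries 1, 2 and 3 and 200.2, 203 and 262 CPM in the libraries labelled cKO 1, 2 and 3. The lowest library labelled cKO thus lay well above the highest control library. edgeR put the log2 fold change at 1.24 (standard error 0.15, adjusted p = 0.00349), which also passed the study's fold threshold of 1 on the log2 scale, as 2.76% of all tested genes did. Ccne2 was called under all 15 alternatives of test, scaling, filter, unit and libraries, with log2 fold changes between 1.10 and 1.33 and adjusted p between 1.21e-12 and 0.0287.

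Ccne1, which encodes the other E-type cyclin (ENSMUSG00000002068, chromosome 7 from 38097984 to 38107534, minus strand), was not called. It had 51.2, 64.4 and 67.1 CPM in control libraries 1, 2 and 3 and 70.6, 73.1 and 97.3 CPM in those labelled cKO. The groups were apart by a narrow gap, and the libraries labelled cKO were led by replicate 3. By edgeR the difference was 0.40 on the log2 scale (standard error 0.17, adjusted p = 0.149), and it was called under 0 of 15 alternatives.

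The balance within the E-type pair was read from FPKM. Ccne2 made up 52.1, 50.1 and 51.7% of the summed E-type FPKM in control libraries 1, 2 and 3, and 66.0, 65.5 and 64.8% in the libraries labelled cKO. The control mean was 51.3 ± 1.03% and the mean of the libraries labelled cKO was 65.4 ± 0.630% (S.D., n = 3), so the replicates of a group lay closer together than they did for either gene alone. The difference reached p = 0.1 by a two-sided exact permutation test (Benjamini-Hochberg adjusted p = 0.15 over 3 shares), where 3 libraries against 3 allow no p below 0.1. With 1 library left out in turn the difference stayed between 13.5 and 14.5 percentage points.

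**Figure D3:**
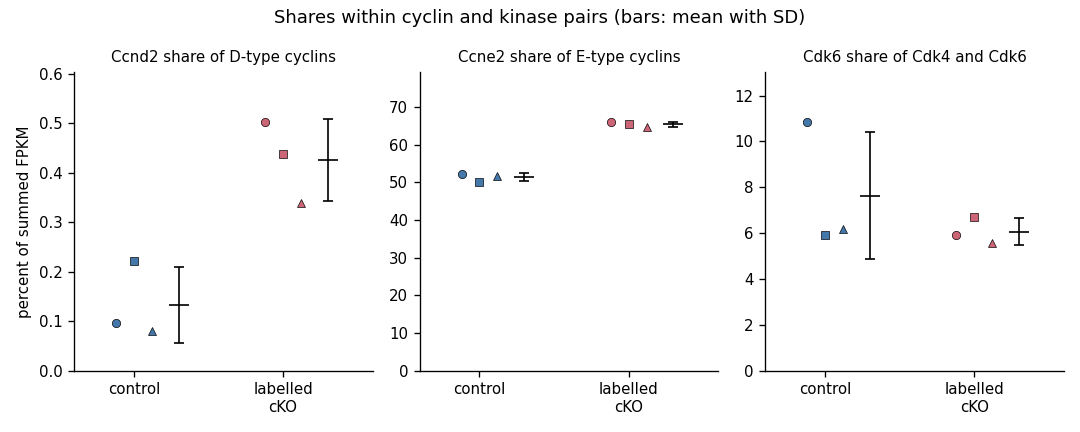
Percent of the summed FPKM (vertical axes from 0) that Ccnd2 made up among the D-type cyclins, Ccne2 among the E-type cyclins and Cdk6 among Cdk4 and Cdk6, in each control library (blue) and each library labelled cKO (red), with the mean and its S.D. in black. The Ccne2 share lies at 50.1 to 52.1% in the control libraries and at 64.8 to 66.0% in those labelled cKO, while the Cdk6 shares overlap.

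Among the D-type cyclins, Ccnd3 and Ccnd2 pointed in opposite directions, and neither was called. Ccnd3 (ENSMUSG00000034165, chromosome 17 from 47505051 to 47599691, plus strand) had 2205, 2630 and 2568 CPM in control libraries 1, 2 and 3 and 2142, 2173 and 1885 CPM in those labelled cKO. Control library 1 lay just above the highest library labelled cKO. The edgeR estimate was -0.26 in log2 units, with a standard error of 0.11 (adjusted p = 0.166), and without control library 1, the lowest of the controls, it was -0.33 and passed (edgeR adjusted p = 0.0281). On the FPKM scale the groups overlapped.

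Ccnd2 (ENSMUSG00000000184, chromosome 6 from 127125162 to 127152193, minus strand) was a rare transcript in these cells, with 25, 97 and 37 reads counted in the control libraries (1 to 3) and 176, 194 and 143 in those labelled cKO. This equalled 1.30, 4.99 and 1.44 CPM against 8.03, 10.1 and 6.60 CPM. The groups were apart, and control library 2 lay more than 3 times above the other controls. edgeR put the log2 fold change at 1.69 (standard error 0.51, adjusted p = 0.0614), the largest in size of the 10 and the least precise. It was called under 8 of 15 alternatives, among them DESeq2 (log2 fold change 1.7, adjusted p = 0.0102) and the fit without control library 2 (2.58, edgeR adjusted p = 0.0207). Ccnd2 made up 0.132 ± 0.0770% of the D-type FPKM (Ccnd1, Ccnd2 and Ccnd3 summed) in the control libraries and 0.426 ± 0.0825% in those labelled cKO (S.D., n = 3 each, exact two-sided permutation p = 0.1, adjusted p = 0.15). The third D-type cyclin, Ccnd1, was rarer still per length, at 0.580 FPKM in the control libraries and 1.34 FPKM in those labelled cKO, and had 2.18 ± 0.853 and 4.98 ± 0.830 CPM (log2 fold change 1.2, standard error 0.43, edgeR adjusted p = 0.101). Of the markers called higher above, C1qb lay at a similar level, at 1.35 CPM in the control libraries and 8.80 CPM in those labelled cKO, and Il2ra at 6.27 and 14.9 CPM. Their part in the Ccnd2 and Ccnd1 values was not tested.

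Ccna2 did not pass in any fit. Cyclin A2 (ENSMUSG00000027715, chromosome 3 from 36564865 to 36572150, minus strand) had 216, 380 and 394 CPM in control libraries 1, 2 and 3 and 269, 317 and 374 CPM in those labelled cKO. Control library 1 was the lowest of all, and the groups overlapped fully. By edgeR the difference was -0.05 on the log2 scale (standard error 0.21, adjusted p = 0.918), and its sign changed between settings. A list of 10 proliferation markers, chiefly genes of G2 and mitosis, with Mki67 and Top2a among them, was set beside it. The list gives no separate reading of S phase. By edgeR 0 of the 10 were called in either direction, as by DESeq2 and limma-voom, with 0 at an unadjusted p below 0.05, their median log2 fold change was 0.021, and their summed level was 2526, 3935 and 4225 CPM in control libraries 1, 2 and 3 against 2972, 3706 and 3924 CPM in those labelled cKO. Libraries with the lowest sums, replicate 1 of each group, were also those with the lowest Ccna2, while for Ccne2 every library labelled cKO lay above every control library whatever its sum. The ratio of Ccne2 to Ccna2 FPKM, chosen after the values were seen, was 0.382, 0.241 and 0.258 in control libraries 1, 2 and 3 and 0.688, 0.602 and 0.656 in those labelled cKO (exact two-sided permutation p = 0.1, the smallest possible). Cdk4 over Ccna2 was also apart, at 1.44, 1.20 and 1.29 against 2.10, 1.63 and 1.67 (exact two-sided permutation p = 0.1). The ratios of Ccne1 and Cdk2 to Ccna2 overlapped, at 0.240 to 0.351 against 0.317 to 0.357 for Ccne1 and 1.10 to 1.63 against 1.40 to 1.51 for Cdk2.

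**Figure D4:**
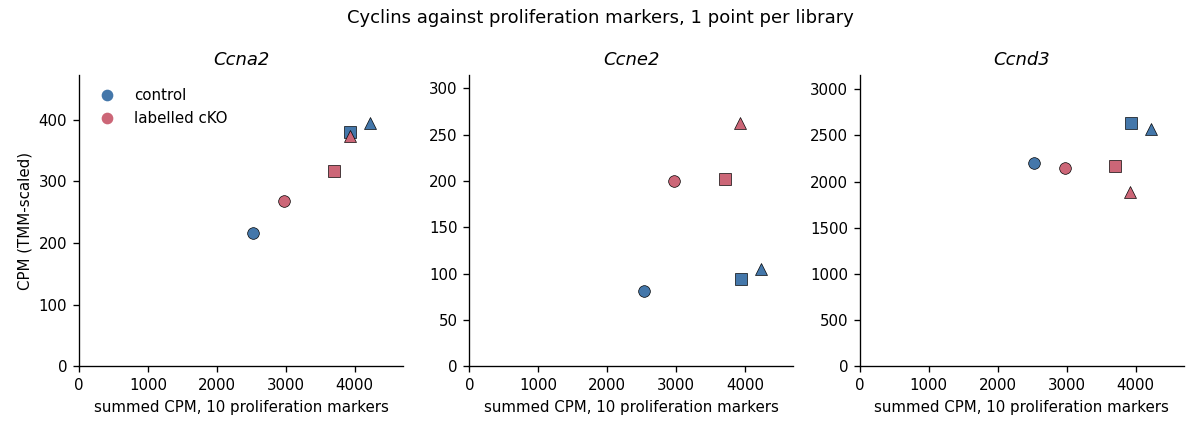
CPM of Ccna2, Ccne2 and Ccnd3 (vertical axes) against the summed CPM of 10 proliferation markers (horizontal axis, 2526 to 4225), with a point per library, control in blue and labelled cKO in red. Ccna2 is lowest where the sum is lowest in each group, Ccne2 lies at 81.8 to 105 CPM in all control libraries and at 200.2 to 262 CPM in all libraries labelled cKO, and Ccnd3 is lower in the libraries labelled cKO.

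The kinases all had point estimates above 0, and none was called by edgeR. Cdk4 (ENSMUSG00000006728, chromosome 10 from 127063534 to 127067920, plus strand), the main partner of D-type cyclins here by level, had 175, 262 and 298 CPM in control libraries 1, 2 and 3 and 345, 320 and 379 CPM in those labelled cKO. The groups were apart, and control library 1 lay far below the other controls. The edgeR estimate was 0.50 in log2 units, with a standard error of 0.18 (adjusted p = 0.0956). Without control library 1 it was 0.31 (edgeR adjusted p = 0.0769), and DESeq2 called it (0.51, adjusted p = 0.0303). Cdk4 shares 19.7% of its exonic bases with Tspan31 on the other strand, which rose from 148 to 435 counts in the control libraries to 822 to 863 counts in those labelled cKO (log2 fold change 1.63, standard error 0.26, edgeR adjusted p = 0.00726). Libraries were made from pre-amplified cDNA, and the sources used here do not say whether strand was kept or reads were counted by strand. Reads from this stretch thus cannot be assigned to either gene.

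Cdk6 (ENSMUSG00000040274, chromosome 5 from 3341485 to 3531008, plus strand), the other partner of D-type cyclins, had 94.8, 84.0 and 105 CPM in control libraries 1, 2 and 3 and 129, 114 and 124 CPM in those labelled cKO. The groups were apart with little spread within either. edgeR put the log2 fold change at 0.37 (standard error 0.13, adjusted p = 0.0875), and DESeq2 placed it at the threshold (0.38, adjusted p = 0.04995). Per length the difference was smaller, with 11.5 ± 1.44 FPKM in the control libraries and 13.5 ± 0.182 FPKM in those labelled cKO. Cdk6 made up 7.63 ± 2.78% of the summed Cdk4 and Cdk6 FPKM in the control libraries and 6.06 ± 0.591% in those labelled cKO (S.D., n = 3, exact two-sided permutation p = 0.6). Control library 1, at 10.8%, stood apart from all other libraries, which lay at 5.55 to 6.71%, and without it the difference was 0.030 percentage points.

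Cdk2 (ENSMUSG00000025358, chromosome 10 from 128697939 to 128705031, minus strand), the kinase of E- and A-type cyclins, had 275, 346 and 352 CPM in control libraries 1, 2 and 3 and 340.5, 397 and 437 CPM in those labelled cKO. The groups overlapped in CPM through replicate 1 of the libraries labelled cKO, while in FPKM they were apart by a narrow gap, at 120 to 149 against 150.1 to 191 FPKM. By edgeR the difference was 0.27 on the log2 scale (standard error 0.14, adjusted p = 0.227).

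The inhibitors did not pass in any fit. Cdkn1b (ENSMUSG00000003031, chromosome 6 from 134920401 to 134925513, plus strand) had 115, 77.6 and 86.2 CPM in control libraries 1, 2 and 3 and 114, 101 and 85.7 CPM in those labelled cKO. The groups overlapped fully, with replicate 1 highest in each. The edgeR estimate was 0.11 in log2 units, with a standard error of 0.17 (adjusted p = 0.725). Cdkn2c (ENSMUSG00000028551, chromosome 4 from 109660876 to 109667189, minus strand) had 66.0, 92.4 and 111 CPM in control libraries 1, 2 and 3 and 66.7, 86.2 and 78.5 CPM in those labelled cKO. Here replicate 1 was the lowest in each group, and the groups overlapped. edgeR put the log2 fold change at -0.22 (standard error 0.19, adjusted p = 0.486).

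Other genes of the G1/S machinery were read from 5 lists of 54 symbols, of which 52 were in the table and 48 were tested. In the libraries labelled cKO 4 were called higher and 2 lower, 12.5% of those tested beside 10.4% over all genes, and their median log2 fold change was 0.19. Of the lists, 10 other cyclins and kinases gave 0 calls by edgeR (3 at an unadjusted p below 0.05, 1 call by DESeq2 and 0 by limma-voom), and 4 other kinase inhibitors gave 1 lower. Among 5 activating phosphatases and opposing kinases 1 was higher, among 13 genes of cyclin and inhibitor turnover 2 were higher and 1 lower, and among 16 pocket proteins and E2F factors 1 was higher.

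Wee1, the kinase that places the inhibitory phosphate on Cdk1 and Cdk2, had 44.7 ± 4.46 CPM in the control libraries and rose to 94.6 ± 15.5 CPM (S.D., n = 3 each, log2 fold change 1.08, standard error 0.15, edgeR adjusted p = 0.00501), and it alone of the 6 called genes stayed past the threshold whichever library was left out. E2f1, an activating E2F factor, had 40.8, 41.0 and 52.5 CPM in control libraries 1, 2 and 3 and 64.3, 80.9 and 87.5 CPM in those labelled cKO (log2 fold change 0.79, standard error 0.16, edgeR adjusted p = 0.0167). Skp2, the ubiquitin ligase subunit that recognises p27 for destruction, had 29.8 ± 4.58 CPM in the control libraries and rose to 48.4 ± 7.81 CPM (S.D., n = 3 each, log2 fold change 0.70, edgeR adjusted p = 0.0354). For all 3 genes every library labelled cKO lay above every control library.

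Cdkn2d (p19), a relative of Cdkn2c that also binds Cdk4 and Cdk6, was the most abundant other inhibitor and fell, from 284.5, 335 and 308 CPM in control libraries 1, 2 and 3 to 208, 212 and 196 CPM in those labelled cKO (log2 fold change -0.59, standard error 0.11, edgeR adjusted p = 0.0113). Its groups were apart, unlike those of Cdkn2c. Cul4a and Cul4b, paralogous ubiquitin ligase scaffolds, differed in direction, at -0.64 and 0.54 on the log2 scale (adjusted p = 0.0205 and 0.0426 by edgeR). Cdkn1a (p21), an inhibitor induced by p53, had 6.48 ± 3.41 CPM in the control libraries and 16.2 ± 5.95 CPM in those labelled cKO and was not called (log2 fold change 1.31, standard error 0.39, edgeR adjusted p = 0.0569). Cdk1, Cks1b, Cdc25a and Rb1 were not called either, at 0.24, 0.24, -0.09 and -0.35 on the log2 scale (adjusted p = 0.510, 0.377, 0.767 and 0.0979 by edgeR).

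Of the 6 calls, 5 depended on single libraries. Leaving out control library 2 or the library labelled cKO 3 left 1 call, leaving out the library labelled cKO 2 left 3, and leaving out control library 1 gave 12. E2f1 had an adjusted p of 0.0944 at most when 1 library was left out, Skp2 0.157, Cdkn2d 0.075, Cul4a 0.103 and Cul4b 0.122. The log2 fold changes kept their direction and much of their size in these fits, from 0.70 to 0.92 for E2f1, 0.58 to 0.82 for Skp2, -0.65 to -0.53 for Cdkn2d, -0.70 to -0.52 for Cul4a and 0.47 to 0.60 for Cul4b. Cul4b also missed the threshold with no filter on low counts (edgeR adjusted p = 0.0507), with the replicate number as a block (edgeR adjusted p = 0.0520) and with limma on log2(FPKM + 1) (adjusted p = 0.0546).

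**Figure D5:**
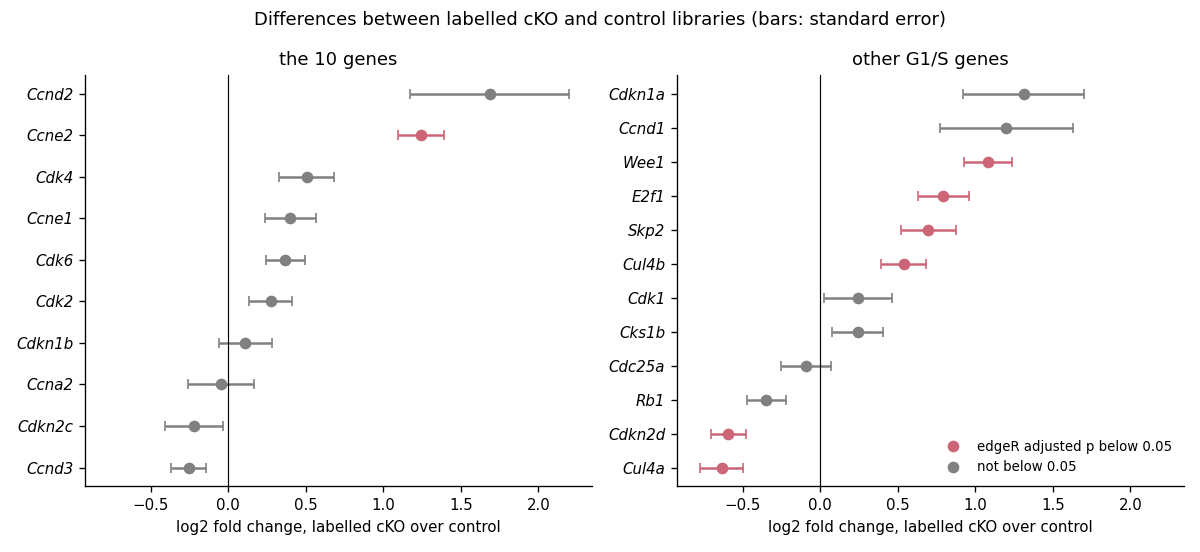
Log2 fold change of the libraries labelled cKO over control (horizontal axis, bars are standard errors) for the 10 genes (left) and for 12 other G1/S genes named by rule (right), in red where the edgeR adjusted p was below 0.05. Ccne2 is the only red point on the left, at 1.24, and on the right Wee1, E2f1, Skp2 and Cul4b lie above 0 and Cdkn2d and Cul4a below it.

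Counts and FPKM together give the transcript length the authors' values imply for each gene and library, since FPKM is the count divided by library size and length. This measure was chosen after the values were seen. For Ccne2 it was 2921 to 2932 bases in the control libraries and 2920 to 2928 bases in those labelled cKO, a coefficient of variation of 0.159% over 6 libraries, so the difference in Ccne2 was the same in counts as per length. Ccnd2 differed from it, at 1180 to 1631 bases in the control libraries and 1420 to 1998 bases in those labelled cKO, a coefficient of variation of 21.2%, which exceeded that of 97.7% of the 10436 genes with at least 10 counts in each library. Cdk6 was also variable, at 7436 to 9777 bases over all libraries. Among the 10 genes, 3 had implied lengths without overlap, all shorter in the libraries labelled cKO, where 15.8% of the genes with such counts had no overlap, in either direction. These were Ccna2, at 2830 to 2965 bases against 2700 to 2749, Cdk2, at 2306 to 2309 against 2284 to 2287, and Ccne1, which rounded to 2000 bases in 5 libraries and 1994 bases in the library labelled cKO 3. For Ccne1 the gap in the other libraries labelled cKO was thus less than a base, too small to read as a difference in length.

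Genes on the other strand touched the exons of several members. Ccne2 shares 17.4% of its exonic bases with Ints8, which had 1048 to 2090 counts in the control libraries and 1535 to 1546 counts in those labelled cKO (log2 fold change 0.10, standard error 0.16, edgeR adjusted p = 0.732). The groups of Ints8 overlapped in counts, unlike those of Ccne2. Ccna2 shares 12.5% with Exosc9, which was called higher (log2 fold change 0.54, standard error 0.13, edgeR adjusted p = 0.0321), and Ccnd3 shares 4.11% with Bysl (log2 fold change 0.044, standard error 0.18, edgeR adjusted p = 0.903). As for Cdk4, reads from these shared stretches cannot be assigned to either gene, and their part in the values was not tested.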

How the data were processed

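DP thymocyte RNA-Seq gave 6 libraries, 3 per genotype, grouped by the labelled genotype and numbered as in the sample titles. The authors deposited read counts per gene and FPKM, per kilobase of transcript and scaled to library size, for each library in a single table with 22322 genes. The authors also deposited mean FPKM per group, the log2 ratio of those means, and a p-value and FDR from their own DESeq2 comparison, none of which was used here. The submitters' processing notes list fastp 0.18.0, Bowtie2 2.2.8, HISAT2, StringTie 1.3.1 and RSEM without roles, and no genome build or annotation is named (not given in the sources used here). Gene positions are from GENCODE M21 (GRCm38), matched by Ensembl identifier.

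Deposited counts were fitted over all genes in R 4.3.3 with edgeR 4.0.16 (quasi-likelihood, TMM, filterByExpr), with genotype alone in the model. The filter asked for about 10 counts, scaled to library size, in as many libraries as a group holds, and 15 in total. A gene could thus pass through a single group, as Adgre1 did with 0 counts in every control library. The fit was tested on simulated data. The standard error is the log2 fold change divided by the square root of its F statistic. At these depths 1 count was worth 0.0381 to 0.0527 CPM. Replicates of a group differed by 19.8 to 68.3 times the sampling noise, so none was a duplicate. Shares and ratios used FPKM and exact permutation tests over libraries. Alternatives were RLE factors, total counts, DESeq2 1.42.0, limma-voom (limma 3.58.1), no filter, a mean of at least 5 CPM, the replicate number as a block, limma on log2(FPKM + 1) and log2(FPKM + 0.1), each library left out, and CPM in place of FPKM for shares.

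The 10 genes, the lists of other genes and the markers were chosen with earlier results of these data known. Beside the 10, the text names every called gene of the 5 G1/S lists, 9 set genes of those lists (Ccnd1, Cdk1, Cdkn1a, Cdkn2d, Skp2, Cks1b, Cdc25a, E2f1, Rb1) and Paxbp1. Motifs, neighbouring genes and single markers were chosen after their values were seen. Of further marker lists, dendritic cell (4 tested), thymic epithelial (4 tested) and erythroid markers (6 tested) gave 0 calls by edgeR, DESeq2 and limma-voom (1, 1 and 0 at an unadjusted edgeR p below 0.05), and B cell markers (3 tested) gave 1 lower.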

Additional observations from a re-analysis of the deposited data

How the results depend on the processing

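Of the 10 genes, Ccne2 was called in every setting and Ccne1, Ccna2, Cdk2, Cdkn1b and Cdkn2c in none. The number called was 1 in edgeR and 4 with DESeq2. It was 2 with limma-voom, no filter on low counts, a mean of at least 5 CPM, log2(FPKM + 1) and log2(FPKM + 0.1). With 1 library left out it was 1 to 2. Over all genes the calls were 1191 of 11488 in edgeR, 1912 of 15349 with DESeq2 and 1317 of 11488 with limma-voom. The 15349 of DESeq2 are all genes with a count, including any that its own filter left without an adjusted p. With no filter the calls were 1359 of 15349, and with a mean of at least 5 CPM 1327 of 9204. On FPKM they were 1237 and 1238 of 11488, and 120 to 2030 with 1 library left out. The second gene in those 5 settings of 2 calls was Ccnd2, with log2 fold changes of 1.97, 1.67, 1.71, 1.12 and 1.53 (adjusted p = 0.0274, 0.0333, 0.0405, 0.0373 and 0.0406, limma or edgeR), and DESeq2 added Ccnd2 (1.7), Cdk4 (0.51) and Cdk6 (0.38). With 1 library left out Ccnd2 ran from 1.37 to 2.58, Ccnd3 from -0.33 to -0.20, Ccna2 from -0.28 to 0.099, Cdkn1b from -0.006 to 0.29 and the Cdk6 share difference from -2.44 to 0.030 percentage points. Ccna2 also changed sign on FPKM, to 0.086 with a pseudocount of 1 and 0.087 with 0.1. The calls among other G1/S genes, 6 in edgeR, were 10 with DESeq2 and 1 to 12 with 1 library left out. The cause of these shifts was not tested. Same-numbered libraries of the groups did not deviate together (correlations of 0.045, 0.038 and -0.030), so the numbers were not taken as pairs. A replicate block called 2 of the 10 genes, with Ccnd2 at 1.92 (edgeR adjusted p = 0.0278), and changed no other call among them, and among the other G1/S genes called in edgeR it lost Cul4b (adjusted p = 0.0520). Among the control libraries Ccnd2 varied by 81.3% (coefficient of variation in CPM), where counting error at their mean of 53 reads gives 13.7%. Counting error leaves out any spread added by the pre-amplification of cDNA, whose part was not tested.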
